A study of Ovis aries with 6 samples.

Results

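The 8 genes described here are the caspases CASP9, CASP8 and CASP6, the apoptosome components CYCS (cytochrome c) and APAF1, and the inhibitor of apoptosis proteins (IAPs) XIAP and BIRC2 with their antagonist DIABLO. Their names were looked up among the 34119 loci of the deposited table, and the protein-coding locus of highest mean count was kept for 6 of them, while CASP9 had no locus marked protein-coding and CASP6 was matched by its description. All 8 had a locus that passed the filter on low values that 14702 loci with a gene name passed. RNA was sequenced from granulosa cells of sheep (Ovis aries) in 3 libraries from atretic follicles and 3 from healthy follicles, with total RNA taken by TRIzol and depleted of ribosomal RNA. The labels describe the 3 samples of each group as biologically independent, list granulosa cell in a cell line field, and give no animal, breed, age, follicle size or treatment. Nothing ties the samples to separate animals, so the p-values measure the spread between these libraries. The libraries held between 87455037 and 91597388 counts.

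Apoptosis ends in the activation of caspases, proteases that cut their substrates after aspartate and take the cell apart. In the mitochondrial route, cytochrome c leaks out of mitochondria and binds APAF1, which assembles into the apoptosome and activates the initiator caspase-9. In the receptor route, caspase-8 is activated at death receptors. Both routes converge on executioner caspases, and the IAPs hold caspases in check until DIABLO, released with cytochrome c, displaces them. Granulosa cells, the somatic cells lining the inside of the ovarian follicle, are known to die by apoptosis when a follicle degenerates, a process called atresia.

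One library, healthy replicate 3, differed from all others. Its TMM factor, the scale factor that corrects for a few loci taking many reads, was 0.835, against 0.987 to 1.03 in atretic libraries and 1.09 in both other healthy libraries. Granulosa identity was checked with FSHR, the follicle-stimulating hormone receptor, and FOXL2, a transcription factor of the granulosa lineage. FSHR lay at 1270 to 1380 CPM (counts scaled to library size, TMM-normalised) in atretic libraries and at 1110 to 1830 CPM in healthy libraries, and FOXL2 at 197 to 229 CPM and 206 to 372 CPM. The 7 granulosa markers with a locus of their own summed to 6580 to 7060 CPM in atretic libraries, against 6170, 6150 and 24100 CPM in healthy replicates 1, 2 and 3. All 7 lay above every atretic library in healthy replicate 3, but most of that sum was INHBA. It had 14800 CPM there, against 2220 to 3010 CPM in the other libraries. The 3 theca markers with a locus of their own summed to 44.5 to 45.3 CPM in atretic libraries, against 21.1, 13.2 and 311 CPM in healthy replicates 1, 2 and 3. Most of this was the luteinising hormone receptor LHCGR, which granulosa cells of advanced follicles also express, at 304 CPM in healthy replicate 3, while the theca enzyme CYP17A1 was at or below 0.414 CPM in every library. The summed level of 11 macrophage markers with a locus of their own was 162 to 186 CPM in atretic libraries, against 541, 519 and 206 CPM in healthy replicates 1, 2 and 3. The 8 stroma markers summed to 74.4 to 79.5 CPM in atretic libraries, against 161, 161 and 57.6 CPM in healthy replicates 1, 2 and 3. In bulk RNA, fewer cells of a type and less RNA per cell cannot be told apart.

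The loci differed in how cleanly they were annotated. No coordinates were converted, and positions stand as in the deposited table, with a genome build that the sources used here do not give. CYCS was counted on chromosome 4 (77586161 to 77593719, plus strand), APAF1 on chromosome 3 (180506884 to 180588842, plus strand) and DIABLO on chromosome 17 (62137888 to 62156195, plus strand). CASP8 lay on chromosome 2 (217673491 to 217697047, plus strand) and XIAP on the X chromosome (115549108 to 115626150, plus strand). CASP6 was not found by gene name. It was taken from a locus on chromosome 6 (20037542 to 20058406, plus strand) that bears an Ensembl identifier and is described in the table as caspase-6. The gene that this description cites was not in the RefSeq gene list (ARS-UI_Ramb_v3.0) that served as a source of names and that holds CASP6 under another identifier, so all CASP6 values rest on the description. Another protein-coding locus on the same strand overlapped the CASP6 locus by 1331 bases and held 9.29% as many counts. CASP9 lay on chromosome 12 (55756972 to 55782409, plus strand) as 1 assembled transcript with no annotated one. That locus starts 1860 bases beyond the end of DNAJC16, which is on the minus strand. Whether it lies on the strand of CASP9 itself could not be checked, so the CASP9 values are those of a locus that bears the name. A protein-coding locus on the minus strand overlapped it by 3802 bases and held 0.91% as many counts. BIRC2 shared its locus on chromosome 15 (6652851 to 6763693, minus strand) with its neighbour BIRC3, so every BIRC2 value below is the sum of both IAP genes.

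Among the 8 genes, cytochrome c stood out, with more RNA in atretic than in healthy libraries, while the log2 fold changes of APAF1 and of the inhibitors XIAP and BIRC2 lay between -0.07 and 0.10. CASP8 and CASP6 were spread more widely within the healthy group than between the group means. With p-values of the edgeR quasi-likelihood test adjusted by Benjamini-Hochberg over the 14702 loci, 0 of the 8 genes passed at 0.05 as higher and 0 as lower, where 0.0476% and 0.0204% of all loci did (0.068% in either direction). At an unadjusted p under 0.05 there was 1 higher, CYCS, and 0 lower, against 6.37% and 6.41% of all loci (12.8% in either direction). DESeq2 called 1 of the 8, CYCS, as higher and 0 as lower, against 2.53% and 1.75% of all loci, and limma on log2(FPKM + 1) called 0. The log2 fold change, atretic minus healthy, was negative in 6 of the 8, against 54% of all loci. The median log2 fold change of the 8 genes was -0.07, beside -0.03 for all loci tested.

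**Figure D1:**
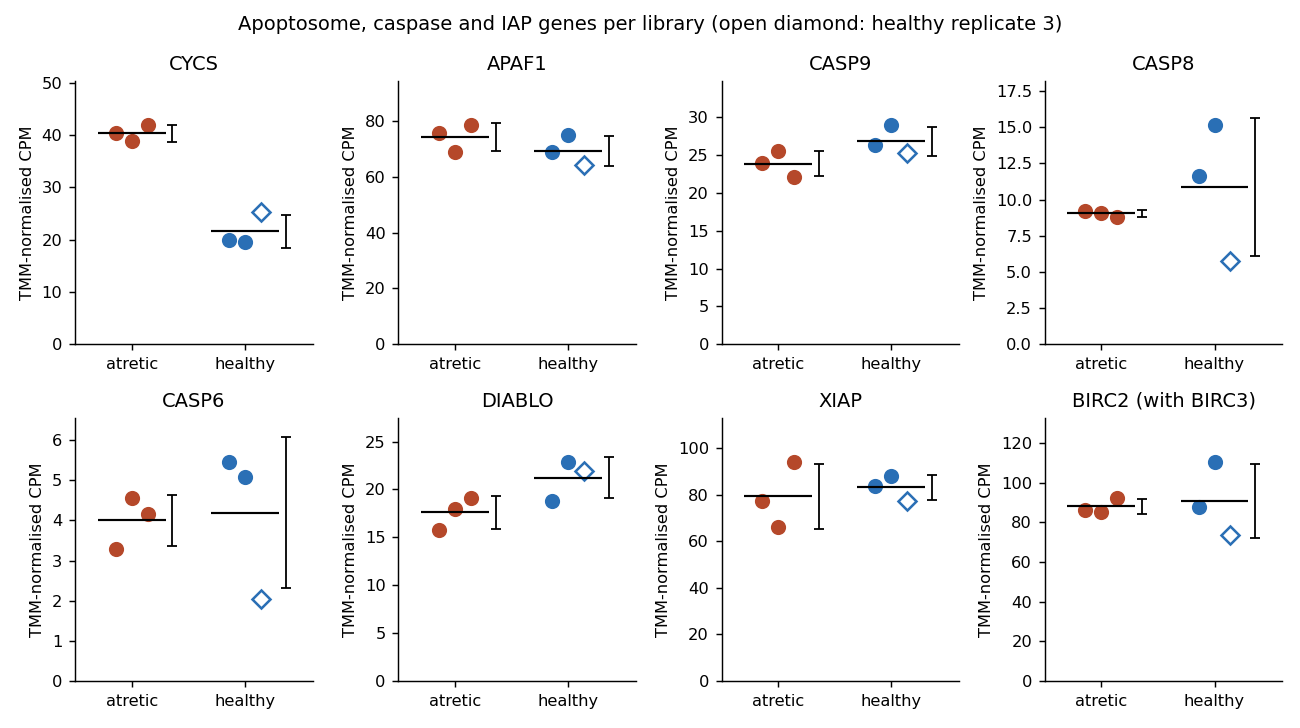
TMM-normalised CPM (vertical axes, each from 0) of the 8 genes in the 3 atretic (left) and 3 healthy (right) libraries. Points are libraries, the open diamond is healthy replicate 3, horizontal bars are group means and error bars 1 SD. CYCS is the gene whose groups do not overlap, and CASP8 and CASP6 are lowest in healthy replicate 3.

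Cytochrome c is an electron carrier between respiratory complexes III and IV and, once in the cytosol, the trigger of the apoptosome. CYCS had 40.3, 38.8 and 41.9 CPM in atretic replicates 1, 2 and 3, against 20.0, 19.6 and 25.2 CPM in healthy replicates 1, 2 and 3. Every atretic library lay above every healthy one, which made CYCS 1 of 8 genes without overlap, against 11.1% of all loci in that direction and 22% in either, and healthy replicate 3 was the highest of the healthy libraries. The group means were 40.3 ± 1.58 CPM in atretic and 21.6 ± 3.13 CPM in healthy (SD, n = 3 each), a ratio of 1.87. Its log2 fold change was 0.90 (SE 0.14, 95% interval 0.57 to 1.23, adjusted p = 0.107 by edgeR), and by its p it ranked 53 among the 14702 loci. The call depended on the tool and on 1 library. DESeq2 gave an adjusted p of 3.27e-05, and without healthy replicate 3 edgeR gave a log2 fold change of 1.02 (SE 0.10, adjusted p = 8.31e-05), in a fit that called 10.9% of all loci higher. Leaving out any other library left the log2 fold change between 0.84 and 0.93, with edgeR adjusted p of 0.333 to 0.631.

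The name CYCS also stood on 2 single loci of 318 bases, on chromosomes 8 and 13, both labelled protein-coding. They held 12 to 26 counts in atretic libraries and 10 to 34 in healthy libraries, against 3079 to 3341 and 1749 to 1800 counts on the chromosome 4 locus. Reads of near-identical copies may have been divided between these loci, and together these 2 loci held 0.877 to 1.23% as many counts as the chromosome 4 locus in atretic libraries and 1.83 to 3.22% in healthy libraries. With all loci of the name summed, the log2 fold change of CYCS was 0.88 (adjusted p = 0.107 by edgeR).

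The respiratory partners of cytochrome c mostly had negative log2 fold changes, 5 of the 7 tested, against 54% of all loci. The other 2 were positive, UQCRH at 0.31 and COX4I1 at 0.15 (adjusted p of 0.596 and 0.657 by edgeR). Of 12 genes of complexes III and IV listed, 8 were found and 7 tested, and 0 passed by edgeR in either direction. At an unadjusted p under 0.05, 1 was lower, against 6.41% of all loci. DESeq2 and limma called 0 of them. Their median log2 fold change was -0.20, beside 0.90 for CYCS and -0.03 for all loci. CYC1, the cytochrome c1 of complex III that hands electrons to cytochrome c, had 33.9, 35.7 and 31.2 CPM in atretic libraries, against 44.1, 41.2 and 48.4 CPM in healthy libraries. Its groups did not overlap, and its log2 fold change was -0.41 (SE 0.11, adjusted p = 0.254 by edgeR). The complex III subunits UQCRFS1 (log2 fold change -0.30) and UQCRC2 (-0.25) also lay below the healthy libraries in every atretic one, with edgeR adjusted p of 0.417 and 0.432. Of all loci, 10.8% lay below in this way. Without healthy replicate 3, CYC1, UQCRFS1 and UQCRC2 passed as lower, with edgeR adjusted p of 0.0375, 0.0364 and 0.0303, where 7.91% of all loci did.

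A per-library ratio put CYCS against these partners. It was chosen after the values were seen. Over the 7 partners with a locus of their own, which include the untested UQCRB and leave out COX4I1, whose locus bears another gene too, the FPKM (fragments scaled by transcript length and library size) of CYCS was 0.633, 0.529 and 0.61 times their geometric mean in atretic replicates 1, 2 and 3. In healthy replicates 1, 2 and 3 it was 0.251, 0.238 and 0.38 times that mean. The log2 ratio differed by 1.06 between the groups without overlap (two-sided exact permutation p = 0.1, the smallest that 3 against 3 libraries allow). The same ratio to APAF1 was 0.911, 0.964 and 0.912 in atretic libraries and 0.496, 0.447 and 0.671 in healthy libraries (exact permutation p = 0.1). The ratio to CASP9 had no overlap either (exact permutation p = 0.1). CYCS itself was known to have no overlap when these ratios were formed, so their p-values add no separate evidence. DIABLO over XIAP and XIAP over CASP9 overlapped between the groups (exact permutation p of 0.3 and 0.7).

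**Figure D2:**
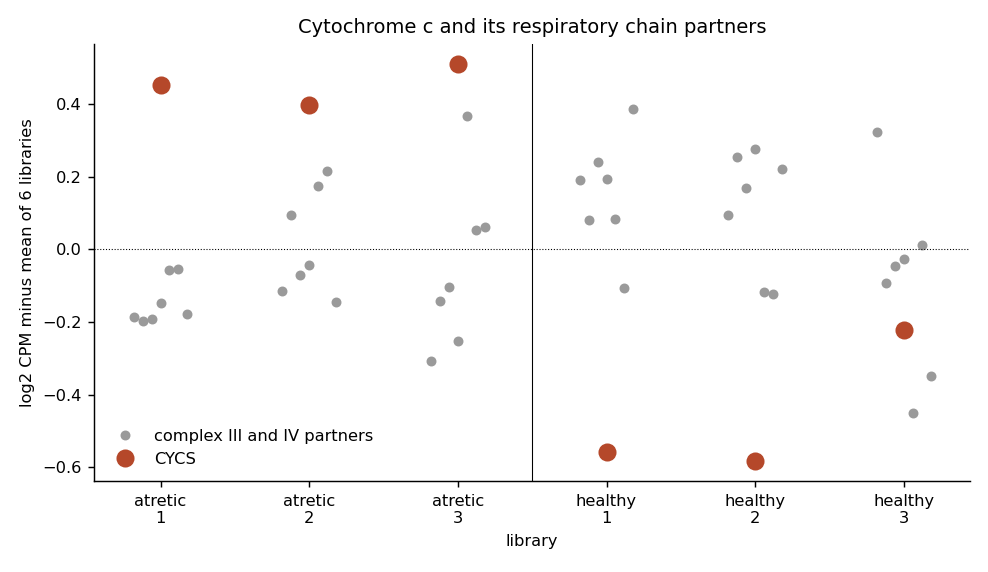
Log2 CPM relative to the mean of the 6 libraries (vertical axis) for CYCS (large points) and the 7 tested complex III and IV partners (small points) in each library, atretic on the left and healthy on the right. CYCS lies above every partner in the 3 atretic libraries and below every partner in healthy replicates 1 and 2, while in healthy replicate 3 it lies above 2 of the 7.

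APAF1, the scaffold that cytochrome c binds, had 75.6, 68.7 and 78.6 CPM in atretic libraries and 68.9, 75.0 and 64.2 CPM in healthy libraries. The groups overlapped, with the highest value in atretic replicate 3 and the lowest in healthy replicate 3. This gave a log2 fold change of 0.10 (SE 0.11, 95% interval -0.17 to 0.37, adjusted p = 0.775 by edgeR). A locus on the opposite strand with no annotated transcript covered 6403 bases of the 3′ end of APAF1 and held 8.06% as many counts. The sources used here do not say whether the counting used strand, so reads of overlapping loci cannot be told apart.

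The locus named CASP9, after the initiator caspase that the apoptosome activates, had 24.0, 25.5 and 22.2 CPM in atretic libraries and 26.3, 29.0 and 25.3 CPM in healthy libraries. Only atretic replicate 2 reached the healthy range, above healthy replicate 3. Its log2 fold change was -0.17 (SE 0.12, 95% interval -0.46 to 0.12, adjusted p = 0.623 by edgeR). Without healthy replicate 3 the groups did not overlap, with atretic below, as also for CASP6 and CASP8, so 3 of the 8 genes lay below against 25.3% of all loci, and 1, CYCS, above against 24.6%. In that fit the CASP9 log2 fold change was -0.21 (adjusted p = 0.223 by edgeR).

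CASP8, the initiator caspase of the receptor route, had 9.24, 9.08 and 8.81 CPM in atretic libraries, a coefficient of variation of 2.4%. In the healthy libraries it had 11.7, 15.2 and 5.74 CPM, a coefficient of variation of 43.9%. Healthy replicates 1 and 2 lay above the atretic libraries and healthy replicate 3 below them. With all libraries the log2 fold change was -0.26 (SE 0.34, 95% interval -1.08 to 0.55, adjusted p = 0.805 by edgeR). Without healthy replicate 3 it was -0.57 (SE 0.16, 95% interval -0.92 to -0.22, adjusted p = 0.0305 by edgeR) and passed as lower, as did 7.91% of all loci. Without healthy replicate 2 it was 0.06 (adjusted p = 0.963 by edgeR).

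CASP6, an executioner caspase known for cutting lamin A, had the lowest counts, with 252, 371 and 332 counts in atretic libraries and 492, 457 and 141 in healthy libraries. These gave 3.30, 4.55 and 4.17 CPM in atretic and 5.46, 5.08 and 2.03 CPM in healthy libraries. As for CASP8, healthy replicates 1 and 2 lay above the atretic libraries and healthy replicate 3 below, at 38.5% of the mean of the other healthy libraries (42.8% for CASP8). The log2 fold change was -0.07 (SE 0.39, 95% interval -0.997 to 0.86, adjusted p = 0.964 by edgeR), and -0.40 (adjusted p = 0.223 by edgeR) without healthy replicate 3. The lowest count, 141, carries a counting error of 8.42%.

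In TMM-normalised CPM, healthy replicate 3 was the lowest of the 6 libraries in 4 of the 8 genes, CASP6, CASP8, APAF1 and BIRC2, where 33.2% of all loci had it lowest, and the highest in 0, where 31.8% of all loci had it highest. In deposited FPKM, which the TMM factor does not enter, it was also the lowest for CASP9 (2.77), XIAP (4.04) and CYCS (2.35), but not for DIABLO (3.01). The share of all loci with it lowest in FPKM was not counted. In CASP8 and CASP6, healthy replicates 1 and 2 lay above and healthy replicate 3 below the atretic libraries. Of the 11 macrophage markers, 6 had healthy replicate 3 below every atretic library (CD163, CD14, MSR1, TYROBP, FCER1G and LAPTM5). The other 5 had it above (C1QA, C1QB, CSF1R, AIF1 and CYBB). The sum of all 11 was 162 to 186 CPM in atretic libraries and 206 CPM in healthy replicate 3. Without CYBB, left out after its values were seen, the other 10 summed to 109, 132 and 116 CPM in atretic libraries and 428, 408 and 105 CPM in healthy libraries. Whether the sum in healthy replicate 3 lay above or below the atretic libraries thus turned on that marker. The part of macrophage RNA in the CASP8 and CASP6 values was not tested.

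DIABLO, which frees caspases by binding IAPs, had 15.7, 18.0 and 19.1 CPM in atretic libraries and 18.8, 22.9 and 21.9 CPM in healthy libraries. The groups overlapped only in that atretic replicate 3 lay above healthy replicate 1. Its log2 fold change was -0.27 (SE 0.15, 95% interval -0.62 to 0.08, adjusted p = 0.504 by edgeR), and it was -0.25 (adjusted p = 0.242 by edgeR) without healthy replicate 3. DIABLO thus lay opposite in sign to CYCS, the other mitochondrial protein of the set, but the difference between the genes was not tested.

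XIAP, the IAP that blocks caspases by binding them directly, had 77.5, 66.4 and 94.3 CPM in atretic libraries and 84.0, 88.2 and 77.5 CPM in healthy libraries. The healthy values lay inside the atretic range. This gave a log2 fold change of -0.07 (SE 0.15, 95% interval -0.43 to 0.30, adjusted p = 0.899 by edgeR). The BIRC2 and BIRC3 locus, which encodes the ubiquitin ligases cIAP1 and cIAP2, had 86.5, 85.4 and 92.4 CPM in atretic libraries and 87.5, 110.7 and 73.8 CPM in healthy libraries. The atretic values lay inside the healthy range, and the log2 fold change was -0.04 (SE 0.16, 95% interval -0.43 to 0.35, adjusted p = 0.944 by edgeR). A locus bearing MMP7 on the plus strand overlapped the BIRC2 and BIRC3 locus by 9561 bases and held 169% as many counts.

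**Figure D3:**
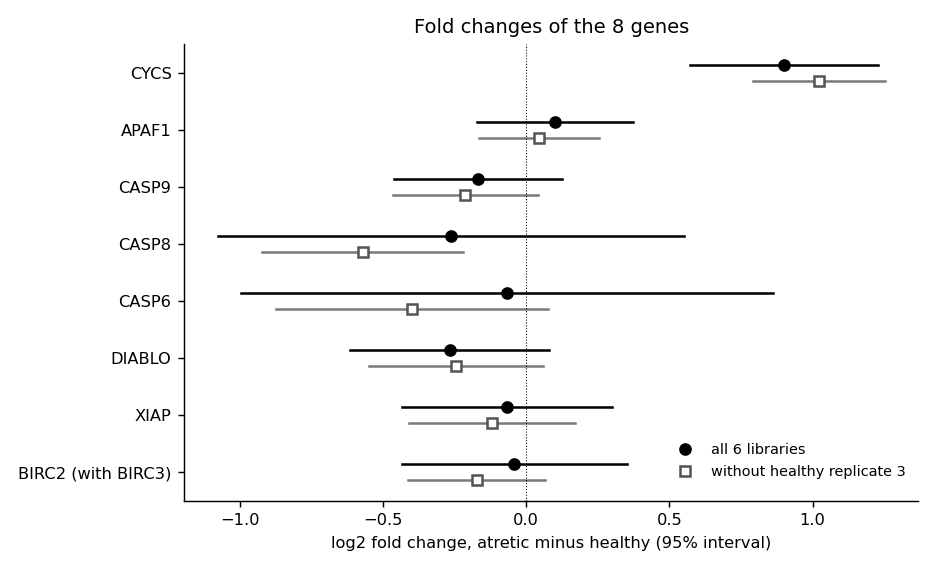
Log2 fold change, atretic minus healthy (horizontal axis), with 95% intervals for the 8 genes. Filled points use all 6 libraries and open squares leave out healthy replicate 3. The interval of CYCS lies above 0 in both fits, that of CASP8 lies below 0 only without healthy replicate 3 (-0.92 to -0.22), and those of the other 6 genes include 0 in both.

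Compared per length in deposited FPKM, the 8 genes lay close together, and their means over the 6 libraries fell between the 51.7 and 77.8 percentiles of all loci tested. In atretic libraries the order by mean FPKM was BIRC2 with BIRC3 (5.05), XIAP (4.82), APAF1 (4.72), CYCS (4.38), CASP9 (3.05), CASP8 (2.89), DIABLO (2.82) and CASP6 (2.58). The only neighbours whose atretic libraries did not overlap were CYCS (4.29 to 4.55) and CASP9 (2.82 to 3.32). In healthy libraries BIRC2 with BIRC3 (5.42), XIAP (5.22) and APAF1 (4.56) again came first, followed by CASP8 (3.70), CASP9 (3.54), DIABLO (3.47), CASP6 (2.89) and CYCS (2.38), and no neighbours were separate. CYCS thus had 3 genes above it in atretic libraries and was last in healthy ones. In FPKM, CYCS lay between 2.35 and 2.43 in all 3 healthy libraries. In CPM its value in healthy replicate 3 was higher than in the other healthy libraries, since the TMM factor of that library enters the CPM and not the FPKM.

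**Figure D4:**
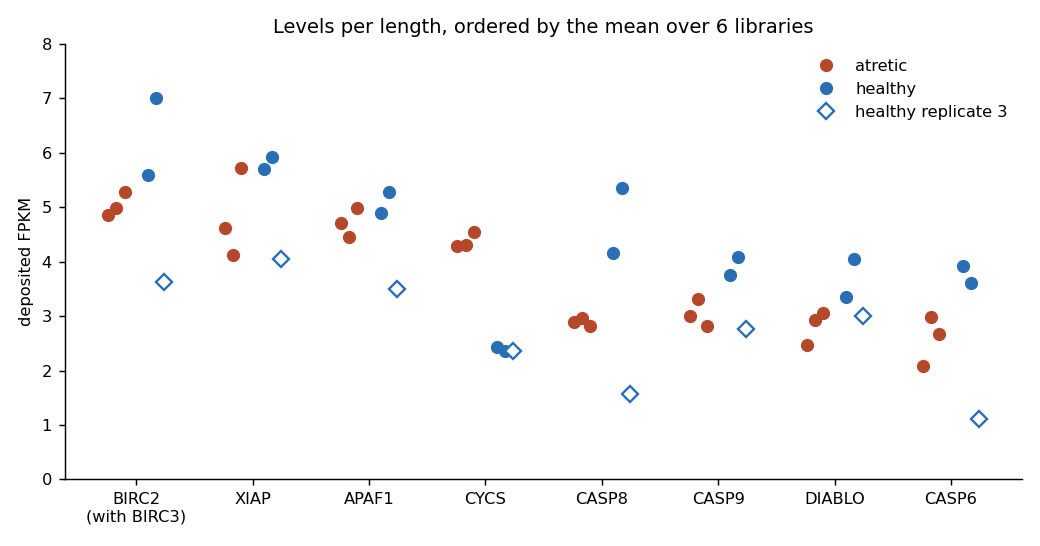
Deposited FPKM (vertical axis, from 0) of the 8 genes, ordered by the mean over 6 libraries. Each point is a library, atretic to the left and healthy to the right within a gene, with healthy replicate 3 as an open diamond. CYCS lies between 4.29 and 4.55 in atretic libraries, above its 3 healthy libraries.

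Across the 6 libraries, CASP8 varied most like BIRC2 (Pearson r of log2 CPM 0.91) and CASP6 (0.87), and CYCS varied most unlike CASP9 (-0.82) among the 8 genes. Of all protein-coding loci tested, those most like CYCS were CSRP2, a LIM domain protein (0.994), the co-chaperone DNAJB4 (0.993) and the Golgi protein TMEM165 (0.992). DNAJB4 had 88.1, 80.5 and 99.0 CPM in atretic libraries and 32.5, 36.3 and 45.4 CPM in healthy libraries. The loci most like DIABLO were FXYD6 (0.976), the peroxisomal carnitine acyltransferase CROT (0.967) and FAM98A (0.967), and those most like CASP9 were COMMD4 (0.988), PIGT (0.987) and the locus of DNAJC5 and TPD52L2 (0.984). These are descriptions over 6 libraries that share their groups and depth, picked from the best of all protein-coding loci, and have no test.

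Other genes of the pathway gave few calls. Of 84 further genes in 7 lists, 63 were found on a locus not used above and 57 were tested, of which 37 had a negative and 20 a positive log2 fold change (median -0.12, beside -0.03 for all loci). By edgeR 0 of the 57 passed, and limma called 0. By edgeR 7 of the 57 had an unadjusted p under 0.05, against 12.8% of all loci. DESeq2 called 3 lower (LMNB1, NAIP and VDAC1) and 0 higher, against 1.75% and 2.53% of all loci. In 2 of the 57 every atretic library lay above, and in 9 below, every healthy one, against 11.1% and 10.8% of all loci. Without healthy replicate 3, 2 passed as higher and 14 as lower, against 10.9% and 7.91% of all loci.

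Of the other caspases, 4 were found and 3 tested, and 0 passed by edgeR, DESeq2 or limma, with 0 at an unadjusted p under 0.05. The locus described as caspase-14, a caspase of the skin, had 10.7, 10.04 and 9.10 CPM in atretic libraries and 12.3, 10.8 and 6.23 CPM in healthy libraries. The groups overlapped, and its log2 fold change was 0.02 (adjusted p = 0.983 by edgeR).

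Among 9 further mitochondrial and apoptosome genes, 0 passed by edgeR or limma, and DESeq2 called 1 lower, against 1.75% of all loci. At an unadjusted p under 0.05, 2 were lower, against 6.41% of all loci. The outer membrane channels VDAC1 and VDAC2 were those 2. VDAC1 had 89.7, 94.3 and 96.3 CPM in atretic libraries and 122.5, 122.2 and 118.1 CPM in healthy libraries (log2 fold change -0.37, adjusted p = 0.234 by edgeR). VDAC2 had a log2 fold change of -0.37 (adjusted p = 0.278 by edgeR). Both lay below every healthy library in every atretic one, as did 10.8% of all loci. Both passed as lower without healthy replicate 3 (edgeR adjusted p of 0.00785 and 0.0283), where 7.91% of all loci did. AIFM1, a flavoprotein of the mitochondrial intermembrane space, had a log2 fold change of -0.17 (adjusted p = 0.715 by edgeR).

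Of the other IAPs and their regulators 6 were tested and 0 passed by edgeR or limma. At an unadjusted p under 0.05, 1 was lower, against 6.41% of all loci, and DESeq2 called 1 lower, against 1.75%. That gene was NAIP, an IAP relative that senses bacterial proteins in inflammasomes, with 3.02, 3.92 and 3.79 CPM in atretic libraries and 15.9, 18.3 and 3.83 CPM in healthy libraries. Its value in healthy replicate 3 lay within the atretic range. The 11 macrophage markers summed there to 206 CPM, below healthy replicates 1 and 2 (541 and 519 CPM) but above the atretic libraries (162 to 186 CPM). The part of macrophage RNA in the NAIP values was not tested. The log2 fold change of NAIP was -1.83 (SE 0.55, adjusted p = 0.279 by edgeR). Without healthy replicate 3 it was -2.26 (adjusted p = 1.25e-05 by edgeR) and passed as lower, as did 7.91% of all loci. BIRC5 (survivin), an IAP relative of dividing cells, was found by the gene number that its description cites, looked up in the RefSeq gene list. Its log2 fold change was 0.17 (adjusted p = 0.771 by edgeR), and that of the cIAP partner TRAF2 was 0.11 (adjusted p = 0.715 by edgeR).

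At the caspase-8 platform 8 genes were tested, 0 passed by edgeR, DESeq2 or limma, and 0 had an unadjusted p under 0.05. The TNF receptor TNFRSF1A had 24.5, 29.1 and 23.3 CPM in atretic libraries and 31.2, 30.4 and 30.5 CPM in healthy libraries, with no overlap (log2 fold change -0.26, adjusted p = 0.456 by edgeR). The kinase RIPK1 had a log2 fold change of -0.19 (adjusted p = 0.672 by edgeR). Without healthy replicate 3 it passed as lower (-0.34, adjusted p = 0.0196 by edgeR), as did 7.91% of all loci. CASP8AP2, a caspase-8 binding protein, had -0.12 (adjusted p = 0.684 by edgeR).

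Upstream of cytochrome c release, 11 genes of the BCL2 family were tested and 0 passed by edgeR, DESeq2 or limma. At an unadjusted p under 0.05, 1 was higher and 1 lower, against 6.37% and 6.41% of all loci. BAK1, which permeabilises the outer mitochondrial membrane, had 5.09, 5.17 and 3.77 CPM in atretic libraries and 6.94, 7.35 and 7.05 CPM in healthy libraries (log2 fold change -0.61, adjusted p = 0.287 by edgeR). BID, the substrate through which caspase-8 reaches the mitochondrion, also lay below every healthy library (log2 fold change -0.34, adjusted p = 0.473 by edgeR). The antiapoptotic MCL1, on a locus shared with ENSA, had 627, 578 and 677 CPM in atretic libraries and 476, 488 and 281 CPM in healthy libraries. Its log2 fold change was 0.60 (adjusted p = 0.355 by edgeR). Without healthy replicate 3, 1 gene of the family passed as higher, MCL1 (0.38, adjusted p = 0.0105 by edgeR), and 3 as lower. These were the proapoptotic BAX (-0.46, adjusted p = 0.00529 by edgeR), BMF (-0.59, adjusted p = 0.00396 by edgeR) and PMAIP1 (-1.17, adjusted p = 0.0182 by edgeR). In that fit 10.9% of all loci passed as higher and 7.91% as lower. With all 6 libraries BAX, BMF and PMAIP1 had log2 fold changes of -0.27, -0.04 and -0.68 (adjusted p of 0.636, 0.992 and 0.750 by edgeR). In each of them healthy replicate 3 lay below every atretic library. The BAX locus also bears an Ensembl identifier.

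Of 13 tested caspase substrates and effectors, 0 passed by edgeR or limma. At an unadjusted p under 0.05, 1 was lower, against 6.41% of all loci, and DESeq2 called 1 lower, against 1.75%. That was lamin B1, LMNB1, which caspases cleave when the nucleus collapses, with 61.9, 63.0 and 54.7 CPM in atretic libraries and 77.5, 88.8 and 92.6 CPM in healthy libraries (log2 fold change -0.53, SE 0.12, adjusted p = 0.193 by edgeR). The kinase STK4 had a log2 fold change of -0.44 (adjusted p = 0.492 by edgeR). Without healthy replicate 3, 3 of the 13 passed as lower (STK4, LMNB1 and the actin-severing protein GSN) and 1 as higher (GSDME, a pore-forming gasdermin, at 0.28, against -0.15 with all libraries). In that fit 7.91% of all loci passed as lower and 10.9% as higher. The chromatin condensation factor ACIN1 had 446, 492 and 448 CPM in atretic libraries, all above the 402 to 414 CPM of the healthy ones (log2 fold change 0.18, adjusted p = 0.589 by edgeR).

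**Figure D5:**
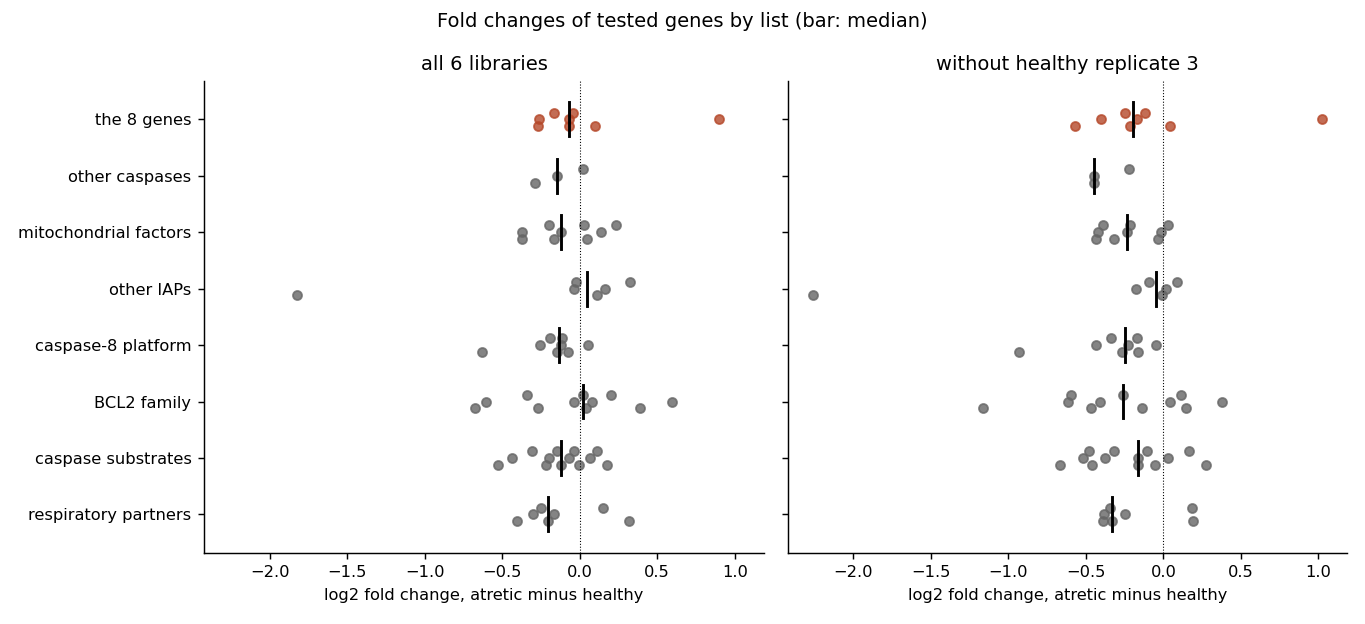
Log2 fold change, atretic minus healthy (horizontal axes), of every tested gene in the 8 genes (top row) and the 7 further lists, with all 6 libraries (left) and without healthy replicate 3 (right). Points are genes and black bars are list medians. CYCS at 0.90 is the rightmost point of the left panel and NAIP at -1.83 the leftmost.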

How the data were processed

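For each locus and each of the 6 libraries, the authors deposited a raw count and an FPKM value in a single table. StringTie 2.1.6, HISAT2 2.0.4, SAMtools, FastQC 0.11.9 and cutadapt 1.9 are named, with no role or order, per the submitters' processing notes. Groups were read from the initials in the titles and the design text. The 5640 loci without a gene name, 8.88 to 11.5% of the counts, were left out of library sizes and of the main fit. Loci with a mean FPKM of at least 1 (14702) were fitted with edgeR 4.0.16 (TMM, group alone, two-sided quasi-likelihood test, Benjamini-Hochberg adjustment at 0.05), in R 4.3.3. CPM values are TMM-normalised over named loci, and SE and 95% intervals come from the F statistic. DESeq2 1.42.0 and limma 3.58.1 were alternatives. The edgeR code was run on simulated counts with known changes. That simulation held no deviating library, so it cannot show how the fit behaves with healthy replicate 3. Further genes were named as the 3 with the smallest unadjusted p per list, of which 2 are not reported here. The 8 genes and the lists were chosen with earlier results of these data known. The FPKM ratios were chosen after the values were seen, and counting errors cover counting alone.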

Additional observations from a re-analysis of the deposited data

How the results depend on the processing

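Counts of loci called by edgeR (7 higher, 3 lower) varied with the setting. DESeq2 called 372 higher and 257 lower, no FPKM filter 2 and 0, a mean FPKM of at least 5 called 17 and 1, protein-coding loci with the 8 genes 18 and 5, and unnamed loci included 33 higher. Upper quartile scaling called 1 lower, as did limma on log2(FPKM + 1) and on log2(FPKM + 0.1). Leaving out 1 library gave 0 to 1598 higher and 0 to 1163 lower loci, the highest counts without healthy replicate 3.

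Of the 8 genes, DESeq2 called 1 higher (CYCS), against 2.53% of all loci. Leaving out 1 library called 0 to 1 higher (CYCS) and 0 to 1 lower (CASP8), the 1 in each case without healthy replicate 3. Genes without overlap numbered 1 above and 0 below, against 11.1% and 10.8% of all loci. With unnamed loci included 1 lay below, against 10.9% of the loci in that setting. At a mean FPKM of at least 5, 0 lay above, against 13.1% of the loci in that setting. Of the 8 genes only XIAP and BIRC2 reach that mean, and CYCS does not. Leaving out 1 library gave 1 to 2 of the 8 genes above and 0 to 3 below, against 13.0 to 24.6% and 12.6 to 25.3% of all loci. CYCS, CASP9, DIABLO and APAF1 kept their sign in all 16 alternatives. Small fold changes turned sign, and the cause was not tested. CASP6 was 0.011 with limma on log2(FPKM + 0.1) and 0.037 with the replicate block, XIAP 0.023 and BIRC2 0.049 at a mean FPKM of at least 5, and BIRC2 0.016 with protein-coding loci. Leaving out 1 library gave -0.399 to 0.177 for CASP6 (above 0 without atretic replicate 1 and healthy replicates 1 and 2), -0.572 to 0.062 for CASP8 (above 0 without healthy replicate 2), -0.211 to 0.046 for XIAP (above 0 without atretic replicate 2) and -0.173 to 0.134 for BIRC2 (above 0 without healthy replicate 2). Same-numbered libraries did not deviate together (correlations of -0.18, 0.07 and -0.01, against -0.12 to 0.15 for differently numbered ones). These are deviations from means of 3 libraries, so they cannot decide whether the numbers pair the libraries. The replicate block called 0 loci higher and 0 lower, with 1251 at an unadjusted p under 0.05, and CYCS had 0.91 (edgeR adjusted p = 0.451). The lowest CASP6 count, 141, has a counting error of 8.42%, beside a coefficient of variation of 44.9% over the healthy libraries.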

Other observations

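Several of the 8 names also stood on loci of the opposite strand with no annotated transcript. The one inside XIAP (X chromosome, 115590773 to 115600067, minus strand) held 963, 865 and 889 counts in atretic libraries and 753, 806 and 696 in healthy libraries. In TMM-normalised CPM every atretic library (10.6 to 12.6) lay above every healthy one (8.36 to 10.03). The log2 fold change was 0.33 (SE 0.16, adjusted p = 0.446 by edgeR), beside -0.07 for XIAP itself. Its counts were 16.3, 16.0 and 11.8% of those of XIAP in atretic libraries and 9.96, 10.2 and 12.9% in healthy replicates 1, 2 and 3. The locus inside BIRC2 (chromosome 15, 6706011 to 6709025, plus strand) held 450 to 547 counts in atretic libraries and 415 to 563 in healthy libraries, with overlapping groups. Those inside DIABLO and APAF1 held at most 38 and 3 counts.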
